A study of Rattus norvegicus with 18 samples.

Results

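The question was whether ligation of the femoral artery changed gene expression in the soleus differently in rats with reduced kidney mass and in rats with intact kidneys. Male rats had either a 5/6 nephrectomy (SNX), a removal of most kidney tissue that produces chronic kidney disease, or a sham operation. The artery of the right hindlimb was ligated and resected in both groups 8 weeks later, and the soleus of both hindlimbs was taken after 24 hours. All 18 of the 18 arrays enter the comparison: left and right soleus of sham rats 11, 13, 15 and 17 and of SNX rats 12, 18, 20, 37 and 49. The unligated left limb belongs to the same ligated animal and is not a limb of an unligated rat. The source field of the labels calls every sham array nonischemic and every SNX array ischemic, whichever the limb, while the design text places the ligation in the right limb of both groups, so limbs are named by side.

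Each rat gave 1 value per gene, the log2 expression value of its right soleus minus that of its left, called the ligation response below. The 5 SNX responses were compared with the 4 sham responses, and the SNX mean minus the sham mean is called the difference of responses. A negative difference means that the right-to-left step was lower in SNX rats, which can be a smaller rise or a larger fall. Each of 14217 genes was represented by its brightest probe set, and 9134 of these lay above the median brightness of all probe sets. Array values of different probe sets were not set against each other.

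The soleus is a postural muscle rich in slow, oxidative fibres. Loss of arterial flow in such a muscle is known to bring hypoxia signalling through the transcription factor HIF, release of endothelial growth factors such as VEGF, early stress transcription factors, entry of monocytes and remodelling of the matrix. Muscle also runs a circadian clock, in which CLOCK and BMAL1 drive the Per, Cry and Nr1d1 genes and their products feed back to repress them. In bulk tissue, fewer cells of a type and less RNA per cell cannot be told apart.

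No probe set passed the test for a difference of responses: 0 of 31042 (0%) had an adjusted p under 0.05 (limma on the 9 right-minus-left differences, Benjamini-Hochberg over all probe sets), and the lowest adjusted p was 0.912, for Per3. At an unadjusted p under 0.05 there were 921 probe sets (2.97%), below the share of 0.05 that this threshold passes when no gene differs. Over genes, 219 had a higher SNX response at that level (1.54%) and 273 a lower one (1.92%). The responses of the groups did not overlap, with every SNX rat above every sham rat, in 111 genes (0.781%), and with every SNX rat below every sham rat in 77 (0.542%). Of the 126 regroupings of the rats, 1 gives each such separation, a share of 0.00794, and neither count exceeds that share. The verbs rose and fell are therefore kept for the ligation responses that passed their own test, and differences of responses are given as values.

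The precision left room for moderate differences. The standard error of a difference of responses had a median of 0.182 log2 units over the brighter genes, and the 95% confidence interval had a median half-width of 0.421. For 80.2% of the brighter genes the interval lay inside 1 log2 unit either way, so a larger difference lay outside it. The estimate itself exceeded 1 log2 unit in 80 genes, 19 higher and 61 lower in SNX rats.

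In rats 17 (sham) and 49 (SNX) the right array differed most from the rest, with mean correlations of 0.978 and 0.980 to the remaining arrays. The mean value over 18 macrophage and monocyte markers was 8.95 and 8.22 on these 2 arrays and at most 7.13 on any other array. The 3′ minus 5′ signal of the actin control probe sets, a measure of RNA quality, changed from left to right by 0.048 ± 0.164 (SD, n = 4) in sham and by 0.018 ± 0.158 (SD, n = 5) in SNX rats. For the GAPDH control it changed by 0.047 ± 0.049 (SD, n = 4) in sham rats, above 0 in all 4, and by -0.050 ± 0.094 (SD, n = 5) in SNX rats, below 0 in all but rat 49. The part of these arrays in the results was not tested beyond the values without rats 17 and 49 given below. The part of RNA quality was not tested. Leaving out rats 17 and 49 cannot test it, since the GAPDH change is then above 0 in every sham rat and below 0 in every SNX rat. Slow and fast fibre markers were well above the array medians, which lay between 3.23 and 3.38, on all 18 arrays.

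Ligation itself moved many genes. Over all 9 rats, 362 genes rose in the right soleus (2.55%) and 262 fell (1.84%) at an adjusted p under 0.05 in limma. Over 9 rats 978 probe sets were called (3.15%), and these became between 96 and 926 when 1 rat was left out, the fewest without sham rat 13. In the 4 sham rats alone 38 genes rose (0.267%) and 28 fell (0.197%). In the 5 SNX rats alone 2 genes rose (0.0141%), the Rab GTPase-activating protein Tbc1d1 and the matrix protease Adamts5. Another 2 fell (0.0141%), the clock gene Per3 and the efflux transporter Abcc1. These calls within a group changed with single rats of either group. The 117 probe sets called in sham rats (0.377%) became 426 without SNX rat 49 and 3 or fewer without any other single rat. Leaving out an SNX rat keeps every sham response and changes only the shared variance estimate and its degrees of freedom. The 6 called in SNX rats (0.0193%) became 0 without SNX rat 12, 37 or 49, and 16 without SNX rat 20. Unequal counts in the groups do not show unequal responses, and the test of the difference passed for none of these genes.

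The size of the whole response did not separate the groups. Over all probe sets the root mean square ligation response of sham rats 11, 13, 15 and 17 was 0.502, 0.331, 0.308 and 0.653. For SNX rats 12, 18, 20, 37 and 49 it was 0.344, 0.338, 0.290, 0.387 and 0.696. The groups overlapped almost completely, and the largest value in each belonged to the rat whose right array stood apart. The means were 0.449 ± 0.162 (SD, n = 4) and 0.411 ± 0.163 (SD, n = 5), and the exact two-sided permutation p was 0.706, with 126 regroupings and 0.00794 as the smallest p they allow. Without sham rat 17 the SNX mean exceeded the sham mean by 0.0306. As a description over genes, response profiles correlated with a median of 0.448 over 6 pairs of sham rats, 0.243 over 10 pairs of SNX rats and 0.376 over 20 mixed pairs. The pairs share rats and arrays.

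The genes that rose over all 9 rats had a median response of 0.67 in sham and 0.57 in SNX rats. Of these 362 genes, 240 (66.3%) had a lower SNX response, against 43.2% of all genes. At an unadjusted p under 0.05, 45 had a lower and 16 a higher SNX response, against the 1.92% and 1.54% of all genes given above. Of the 262 genes that fell, 175 (66.8%) fell less in SNX rats in mean value, against 56.8% of all genes with a difference above 0, and the medians were -0.36 in sham and -0.28 in SNX rats. At the unadjusted threshold 35 of them had a higher and 4 a lower SNX response, against 1.54% and 1.92% of all genes. No gene of either set passed the adjusted test for the difference. Genes are not independent replicates, and these shares carry no p-value. The test over 9 rats and the test of the difference divide by the same residual variance. Genes chosen by the first therefore tend to vary little, which raises the shares at the unadjusted threshold in either direction.

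**Figure D1:**
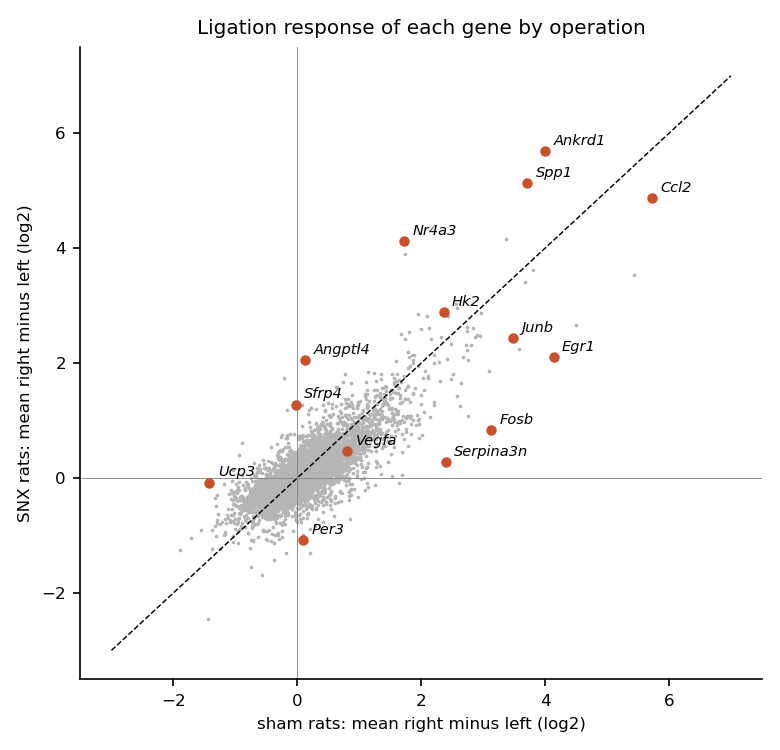
The mean ligation response (right minus left, log2) of each gene in 4 sham rats on the horizontal axis is plotted against that in 5 SNX rats on the vertical axis, with the dashed line marking equal responses. Most genes lie near the line and close to 0, while the labelled Fosb, Serpina3n, Egr1 and Per3 lie below it and Sfrp4, Ucp3 and Angptl4 above it.

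The circadian clock gene Per3, a repressor of the period family, had the lowest p of all. In the left soleus its value was 3.34, 3.55, 3.07 and 3.31 in sham rats 11, 13, 15 and 17, and 3.53, 5.89, 6.27, 6.06 and 6.64 in SNX rats 12, 18, 20, 37 and 49. In the right soleus it was 3.64, 3.50, 3.28 and 3.23 in the sham rats and 2.58, 4.61, 5.06, 5.33 and 5.39 in the SNX rats. Every SNX rat was lower on the right than on the left, and the left value was far higher in all SNX rats but rat 12. The response was 0.09 ± 0.19 (SD, n = 4) in sham and -1.09 ± 0.24 (SD, n = 5) in SNX rats, a difference of -1.18 ± 0.14 (SE) with a 95% interval of -1.50 to -0.86. Per3 fell in SNX rats (limma adjusted p = 0.0217), while the difference did not pass (adjusted p = 0.912, and 0.334 at its lowest under any alternative). SNX exceeded sham by 2.36 on the left and by 1.18 on the right. The sham values and those of SNX rat 12 lay close to or below the median brightness of the arrays, where log2 differences are less reliable.

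Nr1d1, which encodes the repressor REV-ERBα and is driven by CLOCK and BMAL1, had a response of 0.63, 0.99, 1.17 and -0.42 in the sham rats and 0.45, -0.76, -0.70, -0.72 and -1.56 in the SNX rats, in the order above. Sham rat 17 and SNX rat 12 each went against the rest of their group, so the groups overlapped. The difference was -1.25 ± 0.45 (SE, unadjusted p = 0.0240 in limma's fit across all probe sets). Dbp, a clock-driven transcription factor, had responses of 0.69, 0.28, -0.03 and 0.74 in sham and -0.23, -0.36, -0.27, -0.83 and -1.26 in SNX rats. These did not overlap, and the difference was -1.01 ± 0.26 (SE). Bmal1, the activator that REV-ERBα represses, went the other way: -0.28, -0.02, -0.56 and -0.69 in sham rats against 0.21, 0.06, 0.94, -0.29 and 0.27 in SNX rats. Its groups overlapped, with SNX rat 37 inside the sham range, and its difference was 0.63 ± 0.25 (SE).

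In Per3, Nr1d1, Dbp and Bmal1 the left limb carried the larger contrast between operations. The left SNX-minus-sham value was 1.96 for Nr1d1, 1.47 for Dbp and -1.23 for Bmal1, and on the right it was 0.71, 0.46 and -0.60. These genes were chosen on their difference of responses or after their values were seen. Such a choice favours unequal contrasts in the limbs, so the smaller right values describe these genes only. Cry1, a repressor named after its values were seen, as Nr1d1 was, had a difference of 0.35 ± 0.16 (SE). Over the 16 clock genes measured the median SNX-minus-sham value was 0.19 on the left and 0.26 on the right. Of these, 6 had a difference above 0 and 10 below, with a median of -0.21, against 0.01 over all genes. At the unadjusted threshold 1 was higher and 3 were lower, against 1.54% and 1.92% of all genes. None passed the adjusted test. The time of day of tissue collection, the cohort and the hybridisation batch are not given by the labels. Rats 37 and 49 carry numbers well above those of the other SNX rats. Without both, the difference was -1.25 for Per3, -0.93 for Nr1d1, -0.71 for Dbp and 0.79 for Bmal1, and the list's median was -0.06 (-0.05 without rat 49 alone, -0.10 without sham rat 15).

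**Figure D2:**
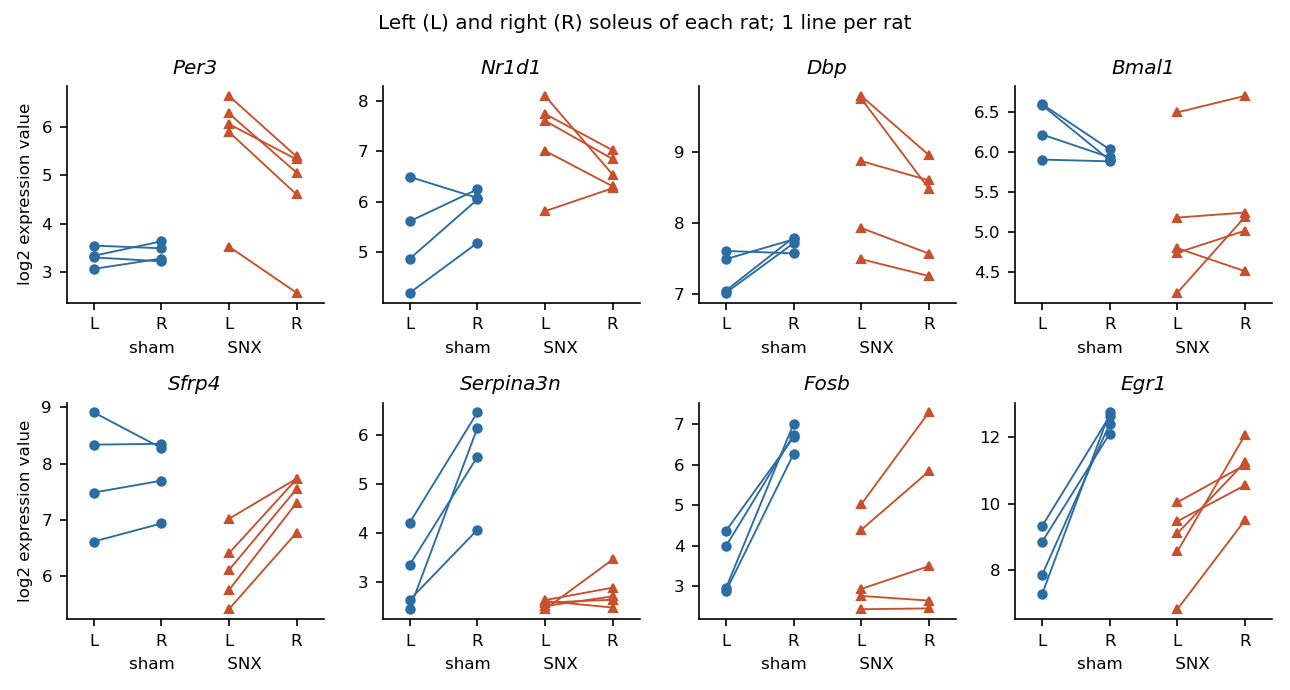
The log2 expression value of 8 genes is drawn for the left (L) and right (R) soleus, with 1 line joining the limbs of each rat, circles for 4 sham rats and triangles for 5 SNX rats. The Per3 lines of all SNX rats slope down from high left values, except that SNX rat 12 starts at 3.53, and the Sfrp4 lines of all SNX rats slope up from low left values.

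The windows just upstream of the clock genes were searched for 3 clock motifs because their differences had opposite signs. The sequences are those of RefSeq on the rat assembly GRCr8, 250 bases ending at the annotated start, written 5′ to 3′ on the gene's strand with the motif in capitals. Nr1d1 holds the E-box CACGTG, bound by CLOCK and BMAL1, and Bmal1 holds a ROR response element, bound by ROR activators and REV-ERB repressors. The Nr1d1 window is chr10:84229455-84229704, minus strand, at 1 of its 2 listed starts. The Bmal1 window is chr1:176766078-176766327, plus strand.
Nr1d1: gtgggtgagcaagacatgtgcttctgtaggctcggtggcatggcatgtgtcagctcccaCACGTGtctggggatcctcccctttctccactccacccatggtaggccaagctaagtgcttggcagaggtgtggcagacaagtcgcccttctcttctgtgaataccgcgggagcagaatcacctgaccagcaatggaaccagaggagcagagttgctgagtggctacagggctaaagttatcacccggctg
Bmal1: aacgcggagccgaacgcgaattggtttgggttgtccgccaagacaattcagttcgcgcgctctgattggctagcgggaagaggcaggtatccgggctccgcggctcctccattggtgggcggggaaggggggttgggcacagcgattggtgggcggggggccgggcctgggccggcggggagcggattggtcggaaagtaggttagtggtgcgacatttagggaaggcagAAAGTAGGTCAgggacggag
The E-box begins 191 bases before the Nr1d1 start and the ROR response element 20 bases before the Bmal1 start. Of 16 measured clock genes, 14 had an entry. On both strands the E-box CACGTG was found in the windows of 4 of them (Bhlhe40, Bhlhe41, Tef and Nr1d1), the D-box TTATGTAA in 1 (Per2) and the ROR response element in 1 (Bmal1). Of 33469 promoter windows of the same length, 5.59% held the E-box, 0.828% the D-box and 0.317% the ROR response element. A clock gene was counted if any of its listed starts held the motif, while these shares count each window. The counts and the shares are therefore not in the same unit. A match is a description of letters and not of binding.

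Among the other brighter genes with the lowest p for a lower SNX response were 2 Rab GTPases of membrane traffic. Rab20, found on endosomes, had responses of 0.79, 0.99, 0.64 and 0.89 in sham rats and 0.04, 0.17, -0.03, 0.06 and 0.39 in SNX rats. Every sham value lay above every SNX value, and the difference was -0.70 ± 0.10 (SE). Rab20 rose in the sham rats (limma adjusted p = 0.0326), and the difference itself did not pass (adjusted p = 0.977). Of its 2 other probe sets, 1 had a difference of the same sign. Rab40c, part of a ubiquitin ligase, was higher on the right in every sham rat and lower in every SNX rat, with responses of 0.31, 0.33, 0.55 and 0.24 against -0.43, -0.39, -0.25, -0.46 and -0.06.

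Pofut2, which adds fucose to thrombospondin repeats, had responses of 1.47, 1.12, 1.06 and 0.79 in sham rats and 0.62, 0.19, 0.01, -0.17 and 0.22 in SNX rats, a difference of -0.94 ± 0.18 (SE). Its other probe set had a difference of the opposite sign. Plcd1, a phospholipase C, had a difference of -1.08 ± 0.22 (SE), from 0.83 ± 0.18 (SD, n = 4) in sham to -0.25 ± 0.44 (SD, n = 5) in SNX rats. Its level was low, with a mean of 4.22 over the arrays. The choline transporter-like Slc44a2 (-0.50), the endosomal deubiquitinase Stambp (-0.46), the lysine methyltransferase Setd6 (-0.27), the synaptic vesicle chaperone Dnajc5 (-0.23) and the mitochondrial ribosome protein Mrps26 (-0.16) had smaller differences. In 9 of the 10 genes with a lower SNX response every sham rat had a response above 0, the exception being Per3.

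Of the 10 genes with the lowest p for a higher SNX response, Sfrp4 had the largest value. It encodes a secreted antagonist of Wnt ligands. Its responses were 0.32, -0.63, 0.21 and 0.02 in sham rats and 1.44, 1.55, 1.32, 0.71 and 1.36 in SNX rats. All SNX rats lay above all sham rats, and the difference was 1.30 ± 0.24 (SE), with a 95% interval of 0.75 to 1.84. In the left soleus it stood at 6.62, 8.91, 7.49 and 8.34 in sham and 6.11, 5.76, 6.41, 7.02 and 5.42 in SNX rats. In the right soleus it stood at 6.94, 8.28, 7.70 and 8.36 in sham and 7.55, 7.31, 7.73, 7.74 and 6.78 in SNX rats. The SNX-minus-sham value was -1.70 on the left and -0.40 on the right. Choosing the gene on its difference favours such unequal contrasts.

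Gpc6, a cell surface heparan sulfate proteoglycan, had responses of -0.52, -0.60, -0.54 and -0.78 in sham rats and 0.42, 0.10, 0.10, -0.19 and 0.31 in SNX rats. It fell in the sham rats (limma adjusted p = 0.0470), and the difference was 0.76 ± 0.12 (SE, adjusted p = 0.977). All 3 of its other probe sets had a difference of the same sign. Ppp1r16b, a regulatory subunit of protein phosphatase 1, had a difference of 0.53 ± 0.09 (SE), with SNX responses of 0.22 to 0.40 and sham responses of -0.45 to 0.01. The ciliary protein Cys1 (0.53), the ribosomal RNA methyltransferase Dimt1 (0.49), the splicing factor Cwf19l2 (0.42), the zinc finger protein Zbtb11 (0.39), the general transcription factor subunit Taf5 (0.30), the endocytic adaptor Epn2 (0.25) and the deSUMOylase Desi2 (0.22) had smaller differences. Of these, Desi2, Cys1, Zbtb11, Cwf19l2 and Epn2 fell in sham rats in limma, with adjusted p from 0.0326 to 0.0466. Cys1 was dim, with a mean of 3.76 over the arrays, so the size of its responses is uncertain. The other probe set of Cwf19l2 had a difference of the opposite sign, as did that of Mrps26 above.

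**Figure D3:**
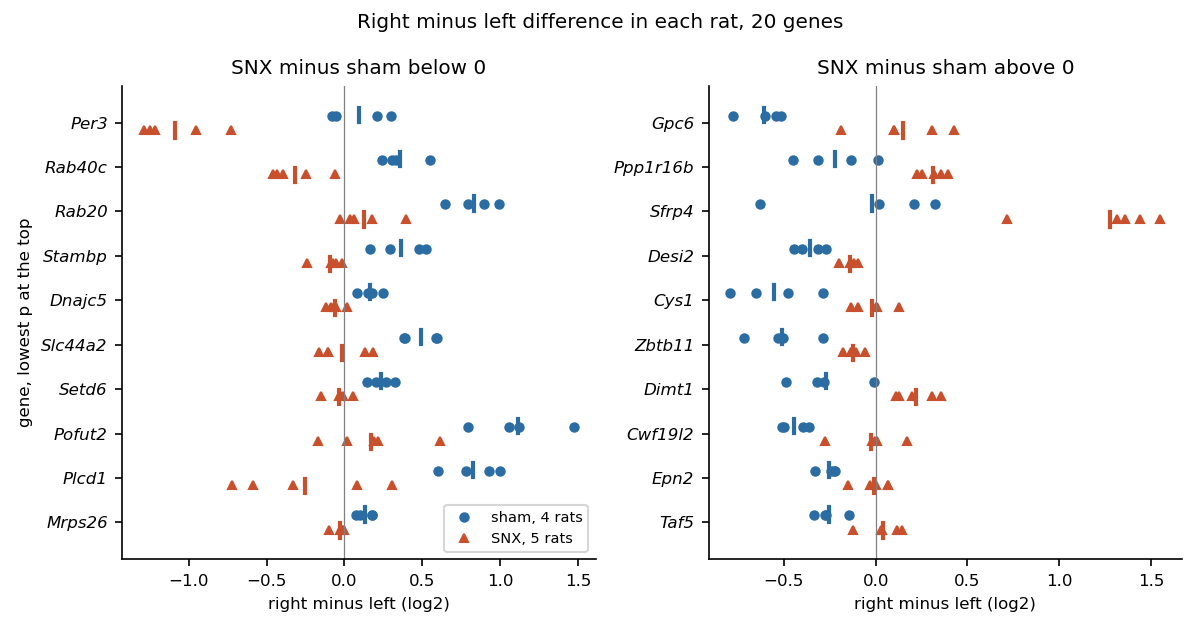
The ligation response (right minus left, log2) of each rat is shown for the 10 brighter genes with the lowest p in each direction, with circles for 4 sham rats, triangles for 5 SNX rats and vertical ticks for group means. The points of the groups do not overlap in any of the 20 genes, which were chosen on this contrast, and no gene passed the adjusted test.

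The difference of responses can be split by limb, since it equals the SNX-minus-sham value on the right less that on the left. All 10 of these genes with a higher SNX response had a lower left value in SNX than in sham rats, and 9 of the 10 with a lower SNX response had a higher left value, Mrps26 being the exception at -0.00. Among the 219 genes with a higher SNX response at the unadjusted threshold, 190 had a lower left value in SNX rats and 169 a higher right value. Among the 273 with a lower SNX response, 228 had a higher left value and 233 a lower right value. The left contrast was the larger of the 2 in 116 of the 219 and 135 of the 273. Choosing genes on the difference favours such pairs of signs, so these counts describe the genes and test nothing.

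The 10 brighter genes that rose with the lowest p over 9 rats mostly had small differences of responses. Tbc1d1, a Rab GTPase-activating protein in glucose transporter traffic, rose by 0.98 ± 0.33 (SD, n = 4) in sham and 1.27 ± 0.19 (SD, n = 5) in SNX rats. Its difference was 0.30 ± 0.16 (SE). The glycolytic enzyme Hk2 rose over the 9 rats by 2.65, with a difference of 0.52 and a 95% interval of -0.61 to 1.66. For the gap junction protein Gja1 the difference was -0.20, for the coactivator Ncoa7 -0.19, for the membrane protein Tmem140 -0.04, for Sh3bp5, a regulator of Rab11, -0.19, for the chemokine-binding venular receptor Ackr1 -0.36 and for the mRNA decay factor Zfp36 -0.41. The other probe set of Ncoa7 had a difference of the opposite sign, and 1 of the 2 others of Gja1 had the same sign.

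Adamts5 and S1pr3 stood out within that set, since their groups did not overlap. Adamts5, which cleaves aggrecan and versican, had responses of 0.21, 0.68, 0.49 and 0.27 in sham rats and 1.11, 0.71, 0.83, 0.92 and 1.05 in SNX rats, a difference of 0.51 ± 0.12 (SE). S1pr3, a receptor for sphingosine-1-phosphate on vessels, had responses of 1.42, 1.62, 1.60 and 2.11 in sham rats and 1.18, 0.31, 0.39, 0.77 and 1.18 in SNX rats. Its difference was -0.92 ± 0.23 (SE, 95% interval -1.46 to -0.39). Neither passed the adjusted test (limma, adjusted p = 0.977 for both).

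Of the 5 genes that fell with the lowest p over 9 rats, Msl1, a subunit of a histone acetyltransferase complex, had responses of -0.39 in sham and -0.38 in SNX rats, a difference of 0.01 with a 95% interval of -0.16 to 0.18. The polyamine synthesis enzyme Amd1 had responses of -0.59 ± 0.04 (SD, n = 4) in sham and -0.27 ± 0.17 (SD, n = 5) in SNX rats. Every SNX rat lay above every sham rat, as in 0.781% of all genes. The zinc finger gene Zfp800 had a difference of 0.25, Abcc1 of -0.20 and Desi2 the 0.22 given above.

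Angiogenic genes followed no single direction. Vegfa, the main endothelial growth factor induced by hypoxia, had left values of 10.68, 11.13, 11.70 and 10.45 in sham and 11.00, 10.06, 11.11, 10.14 and 9.91 in SNX rats. Its right values were 11.50, 11.92, 12.24 and 11.54 in sham and 11.49, 10.90, 11.26, 10.38 and 10.51 in SNX rats. It was higher on the right in all 9 rats. The response was 0.81 ± 0.23 (SD, n = 4) in sham, where it rose (limma adjusted p = 0.0466), and 0.46 ± 0.28 (SD, n = 5) in SNX rats, where the test did not pass (adjusted p = 0.206). The responses overlapped, and the difference was -0.35 ± 0.16 (SE) with a 95% interval of -0.72 to 0.03. The SNX-minus-sham value of Vegfa was -0.55 on the left and -0.89 on the right.

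Among the receptors, Kdr, the main signalling receptor for VEGF, had a response of 0.79 ± 0.22 (SD, n = 4) in sham and 0.92 ± 0.35 (SD, n = 5) in SNX rats. The difference was 0.14 with an interval of -0.30 to 0.58. For the decoy-like receptor Flt1 it was -0.07 (interval -0.79 to 0.66) and for the angiopoietin receptor Tek 0.08 (-0.40 to 0.56). Angpt2, the angiopoietin that loosens vessels, had a difference of -0.15 (-1.01 to 0.71). Apln, the ligand of the apelin receptor, had 0.73 (-0.66 to 2.13), the vasodilator peptide Adm -0.89 (-2.44 to 0.67) and the endothelial nitric oxide synthase Nos3 -0.10 (-0.97 to 0.77). The wide intervals of Apln and Adm hold differences of more than 1 log2 unit.

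Of 37 angiogenic factors and receptors measured out of 42 listed, 18 had a difference above 0 and 19 below, with a median of -0.02 against 0.01 over all genes. At the unadjusted threshold 0 were higher and 2 lower in SNX rats, against 1.54% and 1.92% of all genes. The 2 were Pgf, a VEGF family ligand, at -1.18, and the Notch ligand Dll4, at -0.45. Pgf was dim, with a mean of 3.43, and its other probe set had the opposite sign. Angptl4, a lipase inhibitor induced by hypoxia and fatty acids, had the highest value of the list, 1.92 ± 0.86 (SE), with SNX responses of 0.73, 3.82, 0.25, 1.54 and 3.92 that overlapped the sham responses of 0.79, 0.24, -0.78 and 0.25. Its left values in sham rat 11 and SNX rats 18, 20 and 49, 2.47, 2.44, 2.46 and 2.86, lay below the array medians, so these sizes are uncertain. Of 16 endothelial markers, 6 had a difference above 0 and 10 below, with a median of -0.10. Without sham rat 11 it was 10 above 0, with a median of 0.09. The secreted endothelial protein Egfl7 had -0.55 (unadjusted p = 0.0402 in limma's fit across all probe sets), and the junction protein Pecam1 had -0.20.

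Members of the HIF pathway lay on both sides of 0. Of 31 measured members, 14 had a difference above 0 and 17 below, with a median of -0.01. Hif1a, the inducible subunit, had a difference of -0.22 (interval -1.05 to 0.61), Epas1, its endothelial relative, 0.13 (-0.24 to 0.49), and the prolyl hydroxylase Egln3 0.03 (-0.38 to 0.45). At the unadjusted threshold 1 was higher and 0 lower, against 1.54% and 1.92% of all genes. The 1 was P4ha1, the collagen prolyl hydroxylase, named after its values were seen. Its responses were -1.21, -0.98, -1.20 and -0.46 in sham rats and 0.16, -0.09, -0.27, -0.51 and -0.11 in SNX rats. It fell in sham rats (limma adjusted p = 0.0433), and its difference was 0.80 ± 0.19 (SE), with sham rat 17 and SNX rat 37 overlapping.

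All 24 collagen and interstitial matrix genes had a larger right-to-left step in SNX rats. The median difference was 0.55, against 0.01 over all genes, where 56.8% lay above 0. The median response over the list was 0.20, 0.41, 0.25 and 0.61 in sham rats and 0.89, 1.15, -0.00, 1.0 and 1.49 in SNX rats. SNX rat 20 lay below all sham rats and the other SNX rats above them. At the unadjusted threshold 3 were higher in SNX rats and 0 lower, against 1.54% and 1.92% of all genes, and none passed the adjusted test. The SNX-minus-sham median was -0.96 on the left, lower in 24 of 24, and -0.38 on the right, lower in 21 of 24.

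Within that list, Col3a1, a fibrillar collagen, had responses of 0.14, 0.20, 0.35 and 0.24 in sham rats and 0.48, 1.14, 0.29, 0.74 and 1.24 in SNX rats, a difference of 0.54 ± 0.20 (SE). Col14a1, a fibril-associated collagen, had a difference of 0.56 ± 0.15 (SE). The matricellular protein Postn had 0.93 ± 0.38 (SE), and the adhesion-modulating Tnc 1.03 ± 0.62 (SE), both named after their values were seen. Spp1, a macrophage-rich cytokine of the matrix, had responses of 10.52 in sham rat 17 and 10.08 in SNX rat 49, and between 0.52 and 4.59 in the other rats. All 24 genes stayed above 0 when any single rat was left out, with medians from 0.31 (without SNX rat 49) to 0.77, and also without rats 17 and 49 together, with a median of 0.40. Without SNX rats 37 and 49 there were 23 of 24 above 0, with a median of 0.27.

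Markers of fibroblasts and macrophages are given beside the matrix genes. Of 12 fibroblast markers, 11 had a difference above 0, with a median of 0.33; 5 of them are also in the collagen list. Dpt, a dermatan sulfate-binding matrix protein, had 0.33 ± 0.13 (SE). Of 18 macrophage and monocyte markers, 12 had a difference above 0 and 6 below, none at the unadjusted threshold, with a median of 0.30. Without SNX rat 49 it was 7 above 0, with a median of -0.05, and without sham rat 17 it was 15, with a median of 0.73. Their median response was 0.23, 0.51, 0.70 and 2.30 in sham rats and 1.0, 1.10, -0.24, 0.82 and 2.64 in SNX rats, so SNX rat 20 was lowest in this list as well. Their part in the matrix values was not tested.

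Among 21 proteases and inhibitors, 11 had a difference above 0 and 10 below. At the unadjusted threshold 3 were higher and 1 lower, against 1.54% and 1.92% of all genes. Reck, a membrane inhibitor of matrix metalloproteinases, had left values of 7.32, 7.80, 7.49 and 7.71 in sham and 6.39, 6.28, 6.50, 6.41 and 6.05 in SNX rats. On the right the sham values were 7.0, 7.94, 7.72 and 7.67 and the SNX values 7.42, 6.88, 6.91, 7.07 and 6.81. The left values of the groups were well apart, the right ones overlapped, and the difference of responses was 0.69 ± 0.15 (SE). Serpina3n, a serine protease inhibitor of the acute phase, had responses of 1.43, 2.25, 3.69 and 2.21 in sham rats, where it rose (limma adjusted p = 0.0418), and of 0.26, -0.13, 0.20, 0.06 and 1.02 in SNX rats. Its difference was -2.12 ± 0.44 (SE). The SNX values, 2.45 to 3.46 in both limbs, and the left values of sham rats 11, 15 and 17, 2.64, 2.46 and 3.35, lay near or below the array medians, so the sizes of the responses and of their difference are uncertain.

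Immediate early genes, the first transcription factors to answer stress, had lower responses in SNX rats in 20 of 27 cases, with a median of -0.40. Over all genes 43.2% had a lower response. At the unadjusted threshold 4 were lower and 0 higher, against 1.92% and 1.54% of all genes. Fosb had left values of 4.37, 2.96, 3.99 and 2.88 in sham and 5.02, 2.76, 4.39, 2.44 and 2.94 in SNX rats. Its right values were 6.68, 7.01, 6.73 and 6.27 in sham rats, against 7.30, 2.65, 5.84, 2.46 and 3.50 in SNX rats. The SNX rats split on the right, with rat 12 above every sham rat and rats 18, 37 and 49 far below. The responses did not overlap by a narrow margin, 2.27 in SNX rat 12 against 2.31 in sham rat 11, and the difference was -2.29 ± 0.57 (SE). Several left values of both groups and the right values of SNX rats 18 and 37 lay below the array medians, so these sizes and the margin are uncertain.

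Egr1 had left values of 9.32, 7.86, 8.85 and 7.28 in sham and 8.56, 9.47, 9.10, 6.83 and 10.04 in SNX rats. Its right values were 12.63, 12.40, 12.10 and 12.74 in sham and 12.06, 10.55, 11.24, 9.50 and 11.16 in SNX rats. All sham right values lay above all SNX right values, while the left values overlapped. It rose in sham rats (limma adjusted p = 0.0326), and the difference of responses was -2.03 ± 0.66 (SE, 95% interval -3.55 to -0.52). Junb rose in sham rats (limma adjusted p = 0.0379), with a difference of -1.04 and an interval of -2.46 to 0.38. Ier2, named after its values were seen, had -0.84. The orphan nuclear receptor Nr4a3 went the other way at 2.40 ± 1.28 (SE), with SNX responses from 0.44 to 7.44. Only 1 of its 2 other probe sets had a difference of the same sign. Without sham rat 17 the list's median was -0.14, and without sham rat 17 and SNX rat 20 it was -0.03, with 12 of 27 above 0.

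Inflammatory mediators had mostly lower responses in SNX rats. Of 39 chemokines, cytokines and adhesion molecules, only 18 lay above the median brightness, and signs and sizes of dim genes are less reliable. A difference below 0 was found in 26 of the 39, against 43.2% of all genes, with a median of -0.15. At the unadjusted threshold 0 were higher and 2 lower, against 1.54% and 1.92% of all genes. The 2 were Ptgs2, the inducible cyclooxygenase (-0.95), and Tnfaip6, a hyaluronan-binding protein (-1.68). Ptgs2 was dim, with a mean of 3.58, and the other probe set of Tnfaip6 had the opposite sign. Ccl2, the main monocyte attractant, had responses of 6.18, 5.50, 3.40 and 7.85 in sham rats and 3.47, 5.15, 3.31, 4.91 and 7.48 in SNX rats. The ranges overlapped, and the difference was -0.87 ± 1.10 (SE) with an interval of -3.41 to 1.68. Without sham rat 17 the list had 20 of 39 above 0 and a median of 0.001. Of 20 interferon response genes, 14 had a difference below 0, with a median of -0.18. Without sham rat 17 it was 10 of 20, with a median of -0.02. The antiviral GTPase Mx1 had -0.70, its sham responses ranging from -0.05 to 1.53 and its SNX responses from -0.12 to 0.16.

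In the oxidative stress list 8 of 22 genes had a difference above 0. At the unadjusted threshold 2 were higher and 1 lower, against 1.54% and 1.92% of all genes. Ucp3, a mitochondrial carrier of muscle that is induced by fatty acids, had responses of -1.31, -1.78, -0.65 and -1.94 in sham rats and 0.44, 0.10, 0.30, 0.08 and -1.33 in SNX rats. Only SNX rat 49 lay within the sham range, and the difference was 1.34 ± 0.42 (SE). The secreted glutathione peroxidase Gpx3 had 0.30, and Nfe2l2, the regulator of antioxidant genes, had -0.44 ± 0.14 (SE). Hmox1, which degrades heme, had responses of 2.94 ± 1.56 (SD, n = 4) and 2.48 ± 1.52 (SD, n = 5), and the interval of its difference ran from -2.69 to 1.76.

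Metabolic and fibre genes had small or irregular differences. Of 28 fatty acid uptake and oxidation genes, 25 had a difference below 0, against 43.2% of all genes, with a median of -0.17. Without sham rat 11 it was 13 of 28, with a median of 0.003. At the unadjusted threshold 1 of the 28 was higher and 0 lower, against 1.54% and 1.92% of all genes. Slc27a1, a fatty acid transporter, had -1.05 ± 0.62 (SE). Of 22 atrophy and autophagy genes, 18 were below 0, with a median of -0.11 and 0 at the unadjusted threshold. The 33 tricarboxylic acid cycle and respiratory chain genes had a median of -0.01. Of 7 satellite cell markers 2 were higher at the unadjusted threshold, against 1.54% of all genes. Among them was Myod1, the myogenic transcription factor, with responses of -1.29, -1.19, -0.41 and -1.31 in sham rats and 0.35, -0.32, 0.48, -0.28 and -0.47 in SNX rats. Its difference was 1.0 ± 0.27 (SE). Ankrd1, a titin-binding stress gene, had responses of 4.0 ± 2.56 (SD, n = 4) and 5.69 ± 2.18 (SD, n = 5).

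All 11 slow fibre markers measured had a lower response in SNX rats, with a median difference of -0.77, and none passed the unadjusted threshold. The median response over the list was 1.52, -0.13, -0.78 and 1.22 in sham rats and -0.92, 0.77, -2.07, 0.01 and 0.47 in SNX rats. Both groups held rats on either side of 0. The mean level of the list ranged from 10.93, in the right soleus of SNX rat 20, to 14.59, in the left soleus of SNX rat 12. The slow myosin heavy chain Myh7 had a difference of -0.62 and the slow troponin Tnnt1 -1.0, with intervals of -1.86 to 0.62 and -3.06 to 1.07. With 1 rat left out the median ran from -0.34 (without SNX rat 20) to -1.22 (without sham rat 15), and without sham rat 17 and SNX rat 20 it was -0.03, with 0 of 11 above 0. The 13 fast fibre markers had a median of 0.06, and their mean level ranged from 14.54 to 14.98. The part of the spread in slow fibre level in the fatty acid list was not tested.

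**Figure D4:**
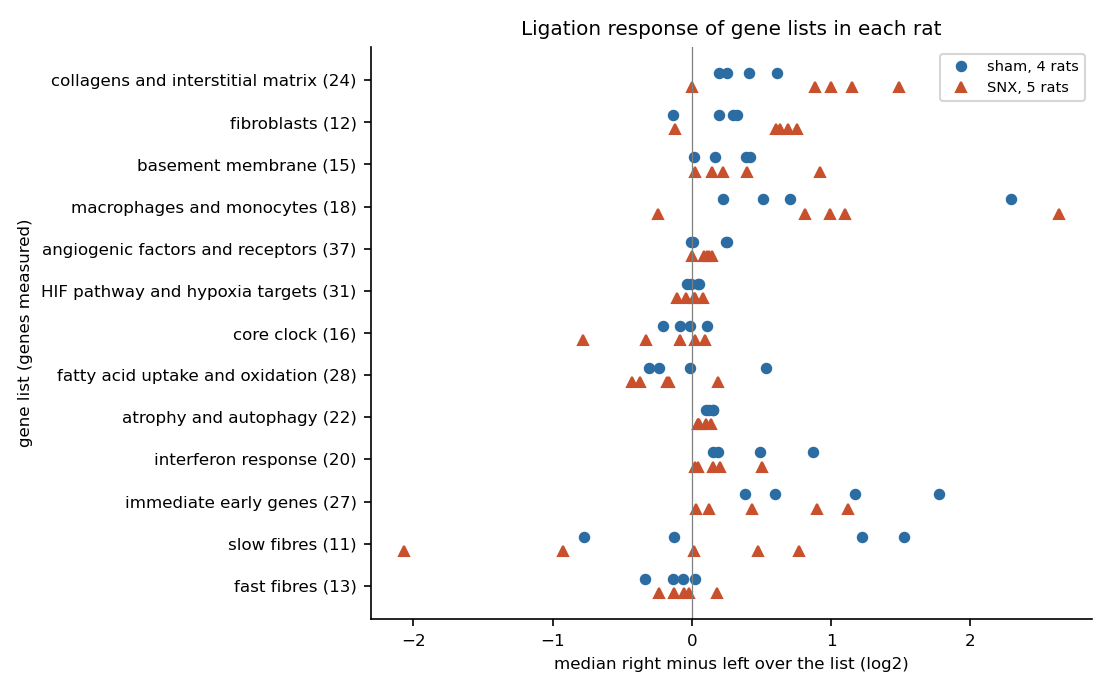
The median ligation response (right minus left, log2) over the measured genes of 13 lists is plotted for each rat, with circles for 4 sham and triangles for 5 SNX rats, and the number of genes in brackets. In the collagen list the SNX rats other than rat 20 lie above all sham rats, while in the slow fibre list both groups spread widely around 0.

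**Figure D5:**
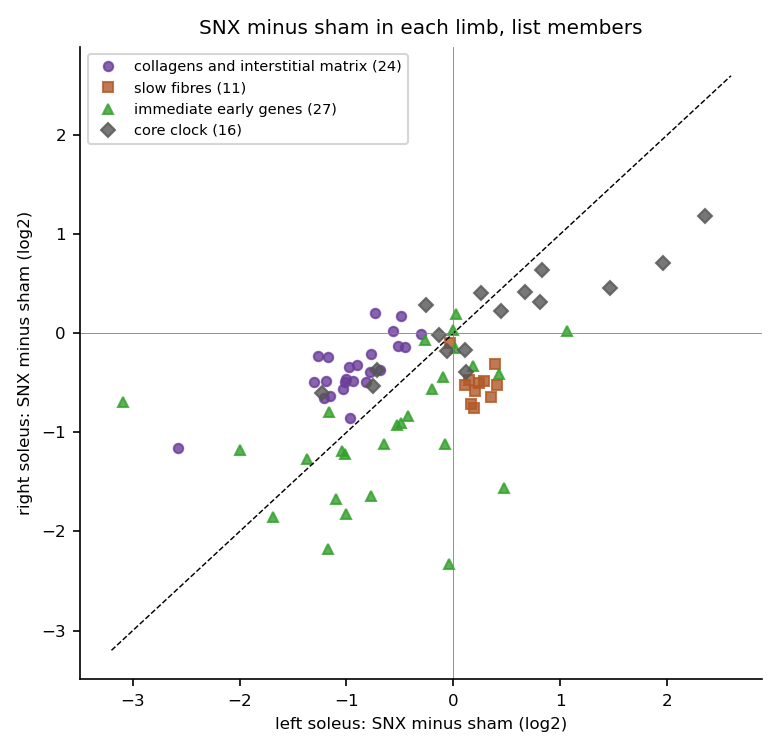
The SNX-minus-sham log2 value of each list member in the left soleus (horizontal axis) is plotted against that in the right soleus (vertical axis), with the dashed line where both are equal and the difference of responses is 0. Collagen genes lie above the line at negative left values, slow fibre genes below it near a left value of 0, immediate early genes mostly below it, and the clock genes farthest from 0 nearer to 0 on the right than on the left.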

How the data were processed

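Soleus RNA of 9 rats, 2 µg per array, was hybridised to 18 Affymetrix rat arrays, per the labels' protocols. The deposited table holds log2 values of 31099 probe sets, as normalized by the authors. The submitters' processing notes list RMA, GCRMA and Partek without saying what each did. Background correction affects dim probe sets most. Arrays carry no depth, and their number limits the precision.

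Sham or SNX, side and rat were read from the titles, and both limbs of a rat are the same animal. In 7 of 9 rats the 2 limbs deviated together from their group means (correlation above 0.1). The 57 control probe sets were left out. Right-minus-left differences of the other 31042 were fitted with limma 3.58.1 (R 4.3.3; lmFit and eBayes; 7 residual and 0.967 prior degrees of freedom), with two-sided p-values adjusted by Benjamini-Hochberg over all of them at 0.05. The fit was tested on simulated data. Confidence intervals are at 95% and unadjusted.

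Of the tested probe sets, 20826 list 1 gene, 436 several and 9780 none. Symbols of 20758 were updated to the RefSeq table of GRCr8. Named were the 10 genes with the lowest p in each direction above the median brightness of 3.30, the 10 that rose and 5 that fell with the lowest p over 9 rats, up to 2 members per direction of lists with 3 or more at an unadjusted p under 0.05, and 17 fixed genes. Nr1d1, Cry1, P4ha1, Myod1, Pgf, Dll4, Angptl4, Tnfaip6, Ptgs2, Nr4a3, Ier2, Postn, Tnc, Spp1, Myh7, Tnnt1, Slc27a1, Mx1, Egfl7, Pecam1 and Dpt were named after their values were seen. The comparison, the 34 gene lists and the rules were chosen with earlier results of these data known. The alternatives were a fit with no block or a random block, other scalings, filters, variance models and weights, and rats left out.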

Additional observations from a re-analysis of the deposited data

Results flagged for a closer look

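In 4 of the named genes all sham rats moved one way and all SNX rats the other. The differences of responses were 0.49 for Dimt1, -0.68 for Rab40c, -0.46 for Stambp and -0.16 for Mrps26. The difference was tested for each and did not pass (limma, adjusted p = 0.977).

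In 17 of 230 groups of rats checked, 1 rat stood far from the others of its group, and chance gives about 1 in 20. SNX rat 49 did so in the ligation response of Hk2 (4.07), Ucp3 (-1.33), Dll4 (0.00085), Ptgs2 (0.44) and Spp1 (10.08). It also did in the list medians of chemokines, cytokines and adhesion molecules (0.59), NADPH oxidase subunits (1.41) and the glucocorticoid response (-0.40). SNX rat 37 stood apart in Sfrp4 (0.71), Tbc1d1 (1.60) and Cry1 (0.57), and SNX rat 18 in Mrps26 (-0.10) and in the oxidative stress list (0.089). SNX rat 12 stood apart in Ackr1 (1.37), SNX rat 20 in the fibroblast list (-0.12), sham rat 15 in Myod1 (-0.41) and sham rat 17 in the cell cycle list (0.85).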

How the results depend on the processing

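The difference of responses passed for 0 probe sets under all 19 alternatives, where 437 to 1832 had an unadjusted p under 0.05. Genes at an unadjusted p under 0.05 numbered 492, 219 without the block, 304 among brighter probe sets, 778 without SNX rat 49, 747 without rats 17 and 49 and 934 without rats 37 and 49. The number of rats and, for dim probe sets, signal near background limit what could be called. Without the replicate block (limbs as separate samples) 46 probe sets were called in sham rats, against 117, and 14 in SNX rats, against 6. With the rat as a random replicate block there were 559 and 99, and 2661 over 9 rats, against 978. Only probe sets above the median mean gave 196, 45 and 2331, and array weights 338, 15 and 1731. A trended, robust variance gave 55 in sham rats. Without rats 17 and 49 there were 0 in SNX rats and 307 over 9 rats. Without rats 17 and 20 there were 0, 0 and 106, and without rats 37 and 49 there were 286, 0 and 221, both chosen after seeing the data. Leaving out 1 rat gave 0 to 426 in sham rats, 0 to 16 in SNX rats, 96 to 926 over 9 rats, and -0.109 to 0.0306 for the response size. Apart from fewer rats or genes, the cause was not tested.

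Of 1545 named-gene values under alternatives, 1509 kept their direction and side of the threshold, and 36, in 13 genes with small or imprecise differences, changed sign. With 1 rat left out the difference ran from -0.23 to 0.10 for Tmem140, -0.36 to 0.0022 for Gja1, -0.30 to 0.031 for Ncoa7, -0.036 to 0.044 for Msl1, -0.27 to 0.13 for Flt1, -0.46 to 0.013 for Angpt2, -0.10 to 0.19 for Tek, -0.28 to 0.20 for Nos3, -0.039 to 0.17 for Egln3 and -1.11 to 0.19 for Hmox1. Array weights gave 0.085 for Flt1 and 0.0073 for Nos3. Without rats 17 and 49 it was 0.126 for Tmem140, 0.0275 for Flt1 and -0.064 for Tek. Without rats 17 and 20 it was 0.0045 for Tmem140, 0.082 for Gja1, 0.19 for Flt1, -0.019 for Tek, 0.19 for Nos3, 0.0088 for Hif1a, -0.046 for Egln3, 0.35 for Hmox1 and 0.23 for Ccl2. Without rats 37 and 49 it was -0.0046 for Msl1, -0.026 for Kdr and 0.00044 for Angpt2.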

Other observations

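Several lists not described above had small differences of responses, SNX minus sham, and for most of them leaving out 1 rat turned the sign of the median or moved it by more than 1.5 times. The median over 15 basement membrane genes was 0.23, 0.03 without sham rat 17, and -0.0015, with 7 of 15 above 0, without rats 17 and 49. Over 17 heat shock protein genes it was 0.11, and -0.02 without sham rat 15, with 7 of 17 above 0. Over 18 mitochondrial biogenesis genes it was -0.08, and 0.05 without sham rat 11, with 13 of 18 above 0. Over 18 glycolysis and glycogen genes it was 0.10, and 0.002 without sham rat 11. Over 19 unfolded protein and integrated stress response genes it was -0.08, and between -0.10 and -0.05 with 1 rat left out. Over 22 cell cycle genes it was -0.06, and 0.06 without sham rat 17. With 1 rat left out it ran from -0.29 to 0.24 over 20 muscle stress genes, from -0.14 to 0.05 over 15 glucocorticoid response genes, from 0.002 to 0.03 over 16 coagulation and fibrinolysis genes and from -0.14 to 0.09 over 8 NADPH oxidase subunits. None of these genes passed the adjusted test.

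Among the other cell type markers, the median with 1 rat left out ran from -0.05 to 0.20 over 12 pericyte and smooth muscle genes, from -0.22 to 0.63 over 9 adipocyte genes, from 0.08 to 0.19 over 9 Schwann cell genes, from 0.007 to 0.04 over 9 neutrophil genes and from -0.19 to 0.04 over 3 red cell genes. It ran from 0.005 to 0.02 over 12 genes of T, B and NK cells, of which 0 lay above the median brightness.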
